A study of Drosophila melanogaster with 6 samples.

Results

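miR-318 and miR-994 are a pair of neighbouring miRNA genes of Drosophila melanogaster that are associated with the follicle cells of late egg chambers. They were followed through small RNA libraries from ovaries of 7-day-old flies. All rows of the deposited table whose precursor was dme-mir-318 or dme-mir-994 were taken, both arms included, which gave 2 of 256 precursors and 4 of 474 rows. There were 2 libraries of each of 3 genotypes. In mei-p26 flies the gene mei-P26 is mutated; its TRIM-NHL product works together with the miRNA pathway in germ cells. In wh7 flies the mutated gene is wuho, whose product is a WD40 repeat protein with a role in germ cells. The w1118 flies were the control, labelled as wild type, and w1118 is also the strain background given for both mutants. The labels call the wuho mutants wh7 and name no allele of mei-P26, and they do not say how many ovaries went into a library.

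miRNAs are cut from a hairpin precursor, either arm of which can be loaded into an Argonaute protein and guide it to messenger RNAs that pair with the seed, the bases near the 5′ end of the miRNA. Follicle cells form the epithelium around each growing egg chamber, and late in oogenesis they amplify their chorion genes and secrete the eggshell. In flies, miR-318 is known from these late follicle cells, where it takes part in chorion gene amplification and eggshell patterning. In the RefSeq gene table of a later genome release than the one named by the submitters, mir-994 and mir-318 are next to each other on arm 3R, between CG6325 and Irp-1B, and the Ensembl annotation of that release puts both on the plus strand. No messenger RNA was measured, so the assignment to late follicle cells could not be checked in these libraries.

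The libraries held 229276 and 249262 counts in mei-p26, 149520 and 228031 in wh7, and 152848 and 144175 in w1118. Levels are given as CPM, counts scaled to a common library total, after TMM scaling, a correction for differences in library make-up. Replicates differed by more than sampling noise, with a chi-square per degree of freedom of 48.1 in mei-p26, 9.86 in wh7 and 45.7 in w1118. The labels do not say that replicates came from separate flies, so p-values here reflect only how far the libraries lay apart, a spread that may be technical. Log2 fold changes are given ± SE and were tested with edgeR's quasi-likelihood test, with p-values adjusted over all 150 rows tested. That test shares information on the spread among rows, so a small p-value does not rest on a row's own libraries alone. Of the 4 member rows, 3 passed the filter on low counts, and miR-318-5p did not.

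miR-318-3p, the main arm of its hairpin, was among the most abundant miRNAs of the wh7 and w1118 ovaries and far less abundant in mei-p26. It had 7437 and 5616 counts in mei-p26, 23946 and 32649 in wh7, and 18080 and 19617 in w1118. These were 30508 and 19480.5 CPM in mei-p26, 163466 and 147028 CPM in wh7, and 135052 and 140684 CPM in w1118. Both mei-p26 libraries were low, and the highest of them lay 4.43 times below the lowest w1118 library. In rank by count, miR-318-3p stood in place 10 and 12 in the mei-p26 libraries, in place 1 in both wh7 libraries, and in place 2 and 1 in the w1118 libraries. The fall in mei-p26 against w1118 was 5.52-fold (log2 fold change -2.46 ± 0.26; edgeR, adjusted p = 1.68e-07). Between the mutants, miR-318-3p in mei-p26 was below its level in wh7, at -2.63 ± 0.26 on the log2 scale (adjusted p = 4.07e-08). For wh7 against w1118 the log2 value was 0.17 ± 0.24, with a 95% interval from -0.34 to 0.68 (adjusted p = 0.698). Both wh7 libraries lay above both w1118 libraries, as in 34% of all rows tested, but the difference did not pass the test. In whole ovaries, fewer cells of a type and less miRNA per cell cannot be told apart.

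miR-994-5p, the main arm of the neighbouring hairpin, was likewise lowest in mei-p26, with wh7 and w1118 overlapping above it. It had 2558 and 2075 counts in mei-p26, 6048 and 8390 in wh7, and 7721 and 4954 in w1118. The levels were 10493.5 and 7198 CPM in mei-p26, 41286 and 37783 CPM in wh7, and 57673 and 35528 CPM in w1118. The mei-p26 libraries lay below all others, while both wh7 libraries lay between the w1118 libraries. Its fall in mei-p26 against w1118 was 5.27-fold (log2 fold change -2.40 ± 0.27; edgeR, adjusted p = 5.32e-07). Without w1118 replicate 2 the log2 fold change was -3.01, and without w1118 replicate 1 it was -2.01. Between the mutants it was -2.16 ± 0.27 (adjusted p = 1.37e-06). The wh7 value against w1118 was -0.24 ± 0.26, with a 95% interval from -0.78 to 0.31 (adjusted p = 0.596), and the sign turned without w1118 replicate 1 (0.26). The w1118 libraries were further apart for this arm than for any other member arm tested. miR-994-5p took 5.05% of all counts in w1118 replicate 1, with an exact 95% binomial interval from 4.94 to 5.16%, and 3.44% in replicate 2, with an interval from 3.34 to 3.53%. These intervals, like the floors given for counts of 0, cover counting error only.

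miR-994-3p, the minor arm of that hairpin, was also lowest in mei-p26. It had 99 and 58 counts in mei-p26, 240 and 310 in wh7, and 328 and 306 in w1118. In CPM these were 406 and 201 in mei-p26, 1638 and 1396 in wh7, and 2450.05 and 2194 in w1118. The 3 genotypes did not overlap, and the order was mei-p26, wh7, w1118 from low to high. The fall in mei-p26 against w1118 was 7.68-fold (log2 fold change -2.94 ± 0.35; edgeR, adjusted p = 8.67e-07). Against wh7, the log2 fold change in mei-p26 was -2.32 ± 0.34 (adjusted p = 1.15e-05), and -2.93 without mei-p26 replicate 1. Set against w1118, wh7 was at -0.62 ± 0.32, with a 95% interval from -1.28 to 0.05 (adjusted p = 0.207), so the libraries of wh7 and w1118 were apart without passing the test. Of all rows tested, 25.3% had both wh7 libraries below both w1118 libraries.

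**Figure D1:**
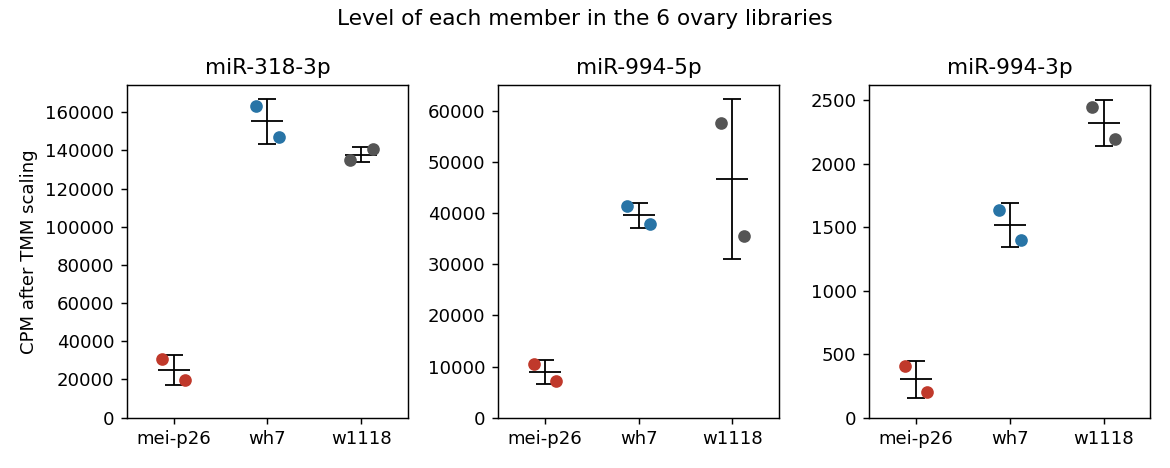
Levels of miR-318-3p, miR-994-5p and miR-994-3p in CPM after TMM scaling (y axis, from 0) in mei-p26, wh7 and w1118 ovaries. Each point is 1 library, and the bar and whiskers are the mean ± SD of 2 libraries. The mei-p26 libraries lie below all others in each panel, and the w1118 libraries of miR-994-5p lie 1.62-fold apart.

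All 3 member arms tested fell in mei-p26 against w1118, where 12.7% of the 150 rows tested were called lower and 34% in either direction. All 3 also had both mei-p26 libraries below both w1118 libraries, as did 29.3% of rows. All 3 were likewise called lower in mei-p26 than in wh7, without overlap, where 14.7% of rows were called lower, 27.3% were called in either direction and 27.3% were lower without overlap. Between wh7 and w1118, 0 of the 3 passed with edgeR's quasi-likelihood test, DESeq2 or limma-voom, and 0 had an unadjusted edgeR p under 0.05, while 15.3% of rows were called in either direction and 4% were called lower. In mei-p26 against w1118, 8 rows had a log2 fold change below that of miR-318-3p, 6 below that of miR-994-3p and 10 below that of miR-994-5p. Both mutants were compared with the same w1118 libraries.

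**Figure D2:**
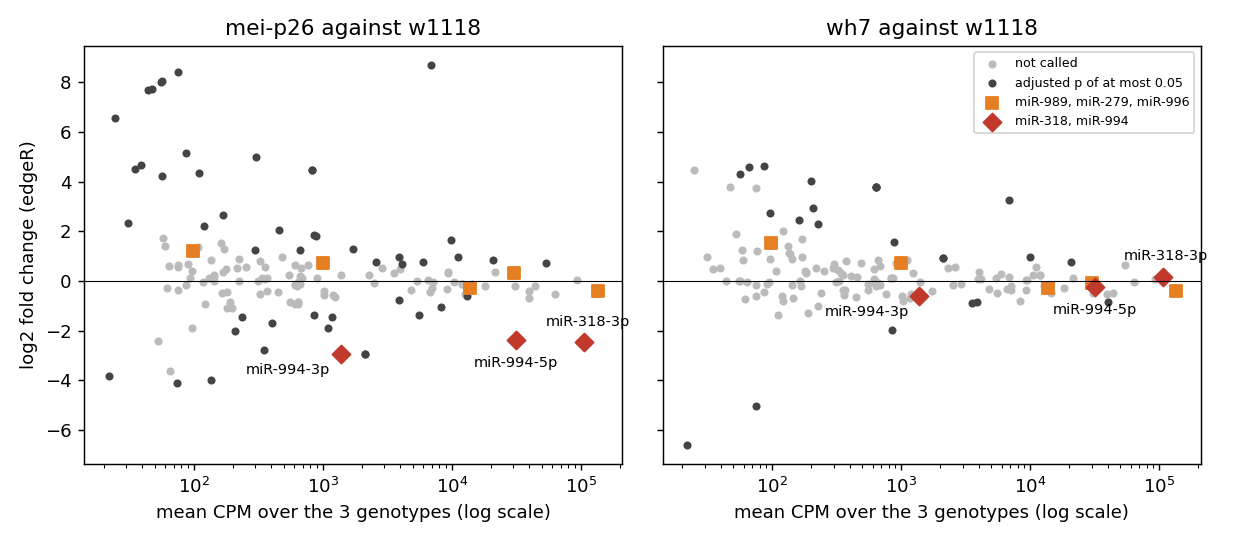
Log2 fold change against w1118 (y axis) by mean CPM over the 3 genotypes (x axis, log scale) for the 150 rows tested, with mei-p26 on the left and wh7 on the right. Dark points passed an adjusted p of 0.05, diamonds are the member arms and squares are miR-989, miR-279 and miR-996. In mei-p26 the member arms lie between -2.94 and -2.40, and in wh7 between -0.62 and 0.17.

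Because of their abundance, the members made up a sizeable part of each library. All 4 rows together held 4.40% and 3.11% of counts in mei-p26, 20.2% and 18.1% in wh7, and 17.1% and 17.3% in w1118. The sum over the members was thus closely matched between the w1118 libraries although miR-994-5p was not. A change in miRNAs this abundant moves the scaling of all others. When TMM factors were computed without the members' rows, the log2 fold change in mei-p26 against w1118 was -2.56 for miR-318-3p, -2.52 for miR-994-5p and -3.04 for miR-994-3p. Over 7 scalings, the median of all rows in this comparison moved by -0.23 to 0.27 on the log2 scale. Relative to that median, miR-318-3p was at -2.57 to -2.53, miR-994-5p at -2.50 to -2.46 and miR-994-3p at -3.04 to -3.01. Scaling shifts all rows nearly alike, so these narrow ranges follow from the arithmetic and are no test of scaling. Without subtracting the median, miR-318-3p was at -2.68 with upper-quartile and -2.21 with total-count scaling. Under the same scalings miR-994-5p was at -2.64 and -2.12, and miR-994-3p at -3.16 and -2.68.

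Ratios of counts within a library do not depend on scaling, and they were used to ask whether both genes moved together. miR-318-3p had 2.91 and 2.71 counts for each count of miR-994-5p in mei-p26, 3.96 and 3.89 in wh7, and 2.34 and 3.96 in w1118. The w1118 libraries held the lowest ratio of the 6 libraries and, nearly tied with wh7 replicate 1, the highest, with mei-p26 between them. As log2 ratios, the difference between mei-p26 and w1118 was -0.12 and overlapped (two-sided exact permutation test, p = 1), against a fall of each miRNA by more than 2 on the same scale. Between mei-p26 and wh7 the log2 ratio differed by -0.48 without overlap (exact permutation p = 0.333), and between wh7 and w1118 by 0.37 with overlap (exact permutation p = 1). That overlap of wh7 and w1118 rests on the near tie. When both arms of each hairpin were summed, the ratio was 3.81 and 3.75 in wh7 and 2.25 and 3.73 in w1118. The log2 ratio then differed by 0.39 without overlap (exact permutation p = 0.333). With 2 libraries against 2, this test cannot give a p below 0.333.

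A second set of ratios was taken to miR-989-3p, a miRNA known from border cells, a group of follicle cells that migrates through the egg chamber. For each count of miR-989-3p there were 0.224 and 0.180 counts of miR-318-3p in mei-p26, 1.30 and 1.24 in wh7, and 0.731 and 1.02 in w1118. For miR-994-5p the same ratio was 0.0771 and 0.0664 in mei-p26, 0.328 and 0.319 in wh7, and 0.312 and 0.257 in w1118. The mei-p26 libraries were lowest in both ratios and did not overlap with the others. Both wh7 libraries lay above both w1118 libraries in each ratio. That difference was 0.56 for miR-318-3p and 0.19 for miR-994-5p on the log2 scale (exact permutation p = 0.333 for each). The log2 ratio to miR-989-3p differed between mei-p26 and w1118 by -2.10 for miR-318-3p and by -1.99 for miR-994-5p (exact permutation p = 0.333 for each). miR-318-3p was also lower relative to miR-279-3p, by -2.80 on the log2 scale, and relative to miR-996-3p, by -2.23.

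**Figure D3:**
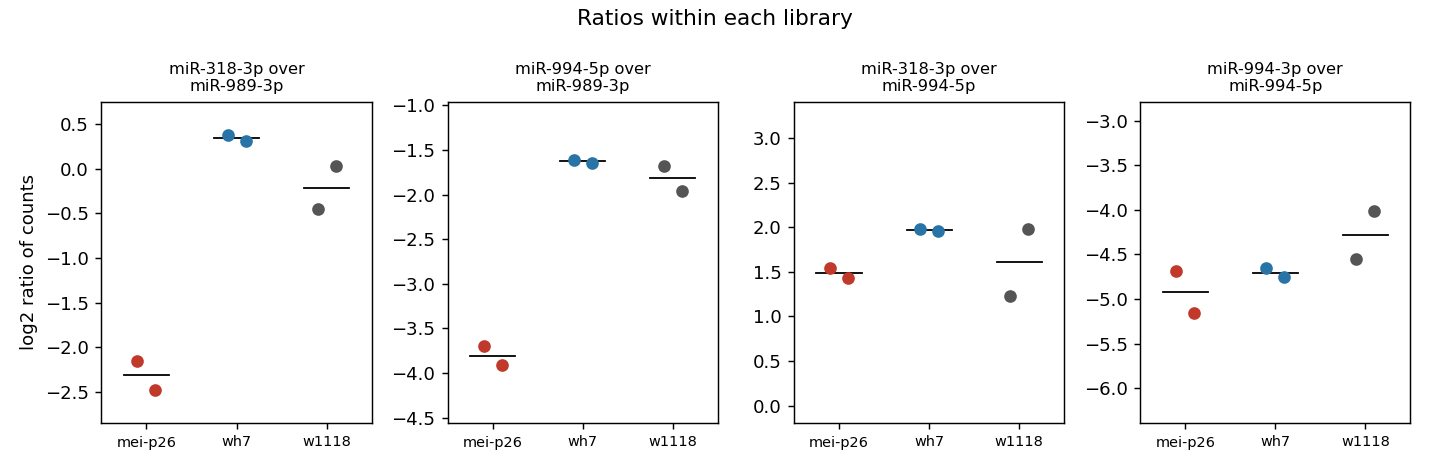
Log2 ratios of counts within each library (y axis; every panel spans the same range) for mei-p26, wh7 and w1118. Points are libraries and lines are means of 2. The ratios to miR-989-3p are lowest in mei-p26, while the ratio of miR-318-3p to miR-994-5p in mei-p26 lies within the range of w1118.

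The arms of each hairpin were very unequal. miR-318-5p had 0 and 0 counts in mei-p26, 1 and 2 in wh7, and 1 and 0 in w1118. Of the counts on the mir-318 hairpin, the 5p arm took 0 of 13053 in mei-p26, 0.00530% in wh7 and 0.00265% in w1118. The floor for the count of 0 in mei-p26, set at 3 counts, was a share of 0.0230%. The exact 95% binomial interval reached 0.0283% there. A difference was not detectable at this depth. On the mir-994 hairpin the 3p arm took 3.73% and 2.72% of counts in mei-p26, 3.82% and 3.56% in wh7, and 4.08% and 5.82% in w1118. The log2 ratio of the 5p to the 3p arm was higher in mei-p26 than in w1118 by 0.62 ± 0.36, with a 95% interval from -0.23 to 1.48 (limma over 50 precursors, adjusted p = 0.376). For wh7 and w1118 the difference was 0.42 ± 0.36 (limma, adjusted p = 0.560), and 2% of precursors passed in each of these comparisons. Between mei-p26 and wh7 it was 0.21 ± 0.36 (limma, adjusted p = 0.857), where 0% of precursors passed, with a sign that turned without mei-p26 replicate 2. The 3p shares of w1118 replicate 1 and wh7 replicate 1 were close, at 4.08% and 3.82%. A difference between the arms did not pass the test in any comparison.

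miR-318-3p is a member of a seed family with miR-3-3p and miR-309-3p, both from a cluster transcribed in the early embryo, so the counts of the family were also summed. miR-3-3p had 0 and 0 counts in mei-p26, 34 and 33 in wh7, and 0 and 2 in w1118. miR-309-3p had 0 and 1 counts in mei-p26, 9 and 6 in wh7, and 1 and 1 in w1118. miR-318-3p held 100% and 99.98% of the family's counts in mei-p26, 99.82% and 99.88% in wh7, and 99.99% and 99.98% in w1118. The sum over the family was lower in mei-p26 than in w1118, at -2.46 ± 0.26 on the log2 scale (edgeR over 144 rows, adjusted p = 4.22e-07), in a comparison where 34.7% of rows passed. In wh7 the sum lay at 0.18 ± 0.25 against w1118 (edgeR, adjusted p = 0.695), with 12.5% of rows called. Against wh7, mei-p26 was at -2.64 ± 0.26 (edgeR, adjusted p = 1.22e-07), with 25.7% of rows called. The family sum thus differed little from miR-318-3p alone, also in wh7, where most counts of the other two members were found.

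The other follicle and border cell miRNAs listed, miR-989, miR-279 and miR-996, were tested in 5 of their 6 rows. None of the 5 passed in mei-p26 against w1118, in wh7 against w1118 or between the mutants (edgeR, 0 calls in each; 1, 2 and 0 at an unadjusted p under 0.05; 0 in each with DESeq2 and with limma-voom). Of all rows tested, 34%, 15.3% and 27.3% were called in either direction in these comparisons. With so few rows in the list, 0 calls does not show that these 5 rows were unchanged. Their median log2 fold change in mei-p26 against w1118 was 0.30, beside 0.08 over all rows tested. miR-989-3p was at 33187 and 31261 counts in mei-p26, 18420 and 26282 in wh7, and 24736 and 19263 in w1118, with a log2 fold change of -0.40 ± 0.24 in mei-p26 against w1118 (adjusted p = 0.192). miR-279-3p, which in flies limits JAK/STAT signalling during border cell specification, was at 0.30 ± 0.22 (adjusted p = 0.297), and miR-996-3p was at -0.27 ± 0.22 (adjusted p = 0.358), whose sign turned with total-count scaling. Without w1118 replicate 2, 3 rows of this list passed, namely miR-989-3p (-0.90), miR-996-3p (-0.63) and miR-989-5p (2.54). Scaling by total count gave 2 calls, miR-279-3p (0.57) and miR-996-5p (0.98), and 1 row of the list then also passed between the mutants. Of all 150 rows, 50 and 42 passed in these comparisons with that scaling. In wh7 against w1118, 1 row passed without w1118 replicate 2 and 1 when only these groups were fitted. Scaled by the sum of the main arms of these 3 miRNAs, a scaling chosen after seeing the data, miR-318-3p in mei-p26 against w1118 was at -2.23 on the log2 scale (edgeR, adjusted p = 0.000423) and miR-994-5p at -2.12 (adjusted p = 0.000423).

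Among germline regulators, bantam, miR-7, miR-184 and miR-278, 1 of 7 rows tested rose in mei-p26 against w1118, miR-184-5p (1.26 ± 0.44), and 1 fell, miR-7-5p (-0.63 ± 0.23), where 21.3% of all rows were called higher and 12.7% lower. Both calls were lost without w1118 replicate 1, mei-p26 replicate 2 or wh7 replicate 1, and that of miR-7-5p also without wh7 replicate 2. Neither passed with total-count scaling, and miR-184-5p did not pass with upper-quartile scaling or with TMM factors computed without the members. Over 20 alternatives the list had 0 to 4 calls, and in 15 the count differed from 2 by more than 1.5 times. Markers of other tissues moved in different directions beside the members. Of the muscle markers miR-1 and miR-133, miR-133-3p had 2 and 1 counts in mei-p26, 1 and 3 in wh7, and 3 and 1 in w1118. miR-133-5p had 0 in all 6 libraries, and neither arm of miR-133 was tested. The markers miR-1 and miR-133 summed, almost all from miR-1, to 22652.5 to 27629 CPM in mei-p26, 23114 to 24097 CPM in wh7, and 11001 to 16874 CPM in w1118. Of their 4 rows 2 were tested, and miR-1-3p rose in mei-p26 against w1118 (0.85 ± 0.25), a call lost without w1118 replicate 2, mei-p26 replicate 2 or wh7 replicate 1, with upper-quartile scaling, and with TMM factors computed without the members. miR-1-3p also rose in wh7 against w1118 (0.76 ± 0.25, edgeR, adjusted p = 0.0386), where no member passed, and that call was lost in 11 of 20 alternatives, among them the fits without w1118 replicate 2, mei-p26 replicate 2 or either wh7 library. miR-281, a marker of gut and Malpighian tubules, summed over its 4 rows to 468 to 611 CPM in mei-p26, 7625 to 8948 CPM in wh7, and 4026 to 4604 CPM in w1118. All 3 of its rows tested fell in mei-p26 against w1118, and 2 of these, with identical counts for miR-281-3p, rose in wh7 against w1118, where 11.3% of all rows were called higher. That rise did not pass once any wh7 or w1118 library was left out. The nervous system markers miR-124, miR-137, miR-210 and miR-219 summed to only 7 and 3 counts in mei-p26, 8 and 5 in wh7, and 1 and 2 in w1118. These were 10.4 to 28.7 CPM in mei-p26, 22.5 to 54.6 CPM in wh7, and 7.47 to 14.3 CPM in w1118. None of their rows was tested, and miR-124 was at 0 in all 6 libraries. The part of these tissues in the members' values was not tested. The members' fall in mei-p26 against w1118 also passed in each of the 6 fits that left out 1 library. Where that left 1 library of mei-p26 or w1118, the spread came from the other groups, and the lone library was assumed to vary like them.

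**Figure D4:**
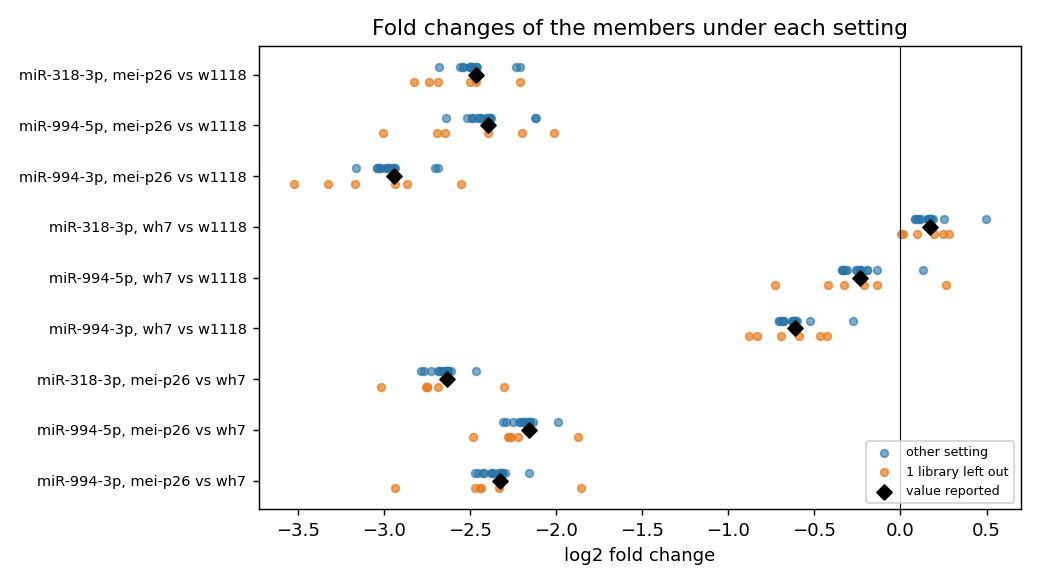
Log2 fold changes (x axis) of the member arms in each of the 3 comparisons. Diamonds are the reported values, points above them the other settings and points below them the fits with 1 library left out. In mei-p26 against w1118 all values of miR-318-3p lie between -2.82 and -2.21, and in wh7 against w1118 those of miR-994-5p lie on both sides of 0, between -0.73 and 0.26.

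The profiles most like those of the members were found by the root mean square difference in log2 CPM over the 6 libraries, after each row was centred on its own mean. Nearest to miR-318-3p was miR-31b-5p, at a distance of 0.137, followed by miR-994-5p at 0.302, miR-1012-3p at 0.326, miR-994-3p at 0.342, miR-1012-5p at 0.437 and both rows of miR-281-3p at 0.587. The median distance over all rows tested was 1.37. Nearest to miR-994-5p was miR-318-3p, followed by miR-31b-5p at 0.315, miR-994-3p at 0.321, miR-1012-5p at 0.378, miR-1012-3p at 0.501, miR-999-3p at 0.570 and miR-986-5p at 0.611, beside a median of 1.27. miR-31b-5p had 20 and 14 counts in mei-p26, 80 and 116 in wh7, and 67 and 57 in w1118. Its reads may be split with those of its close paralog miR-31a-5p, and such a split of reads was not tested. In mei-p26 against w1118, miR-31b-5p was at -2.80 ± 0.45 (edgeR, adjusted p = 5.71e-05). The more abundant miR-31a-5p went the other way, at 1.66 ± 0.24 (edgeR, adjusted p = 1.40e-05). miR-1012, a mirtron, which is a spliced intron processed without Drosha, had 78 and 76 counts of its 3p arm in mei-p26, 311 and 391 in wh7, and 135 and 164 in w1118. All the nearest rows were low in both mei-p26 libraries, which follows from picking them by likeness to members that are low there. They differed in the order of wh7 and w1118.

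**Figure D5:**
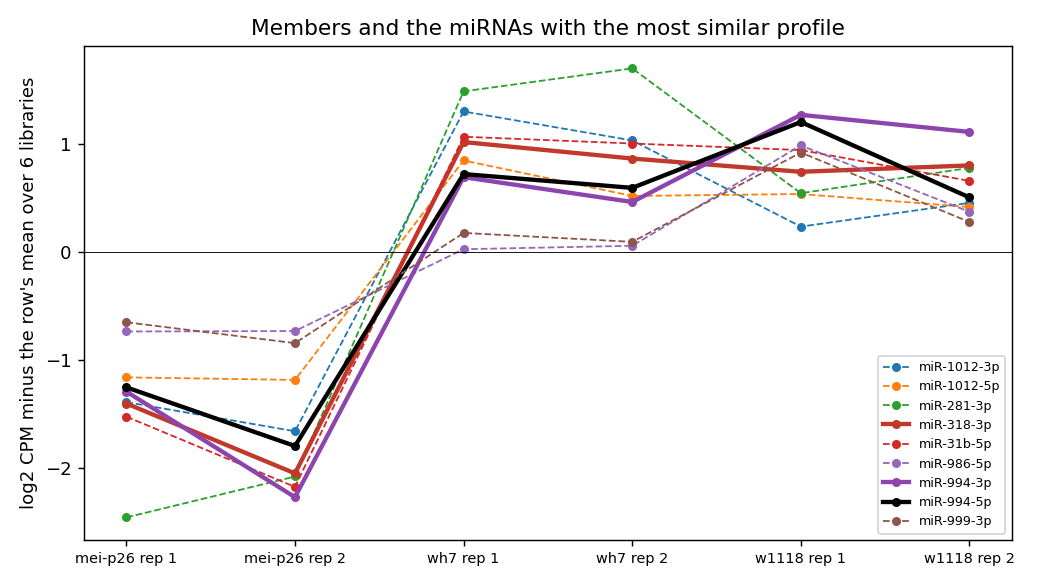
Log2 CPM minus the row's mean over the 6 libraries (y axis) in each library (x axis) for the member arms (thick lines) and the miRNAs with the nearest profiles (dashed lines), where lines only join points of the same miRNA. All rows shown are below their mean in both mei-p26 libraries, as follows from their choice by likeness, and miR-31b-5p runs closest to miR-318-3p.

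In the authors' deposited table, miR-318-3p was 4.63-fold, miR-994-5p 4.36-fold and miR-994-3p 6.42-fold lower in mei-p26 than in w1118, with adjusted p-values of 5.49e-13, 1.57e-10 and 7.03e-11. The folds reported here after TMM scaling were larger, at 5.52, 5.27 and 7.68. With total-count scaling these arms were at -2.21, -2.12 and -2.68 on the log2 scale. The cause of the difference from the deposited folds was not tested. For wh7 against w1118, the authors' deposited table gave adjusted p-values of 0.962, 0.749 and 0.110 for these arms in the same order.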

How the data were processed

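Small RNA libraries were made with the QIAseq miRNA kit, which adds unique molecular identifiers (UMIs), per the labels' protocols. bcl2fastq 2.20, Trimmomatic and build BDGP5 are named in the submitters' processing notes. No aligner or counting tool is named there. The authors deposited whole-number raw counts for each pair of mature miRNA and precursor. No source used here says if UMIs were collapsed, so PCR copies may be counted. The control columns, headed W118 per the file headers, were taken as w1118. The authors' deposited signed fold changes and adjusted p-values come from a test that no header or label names.

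Counts were tested with edgeR 4.0.16 (R 4.3.3): TMM scaling, filterByExpr with a minimum count of 10, 1 quasi-likelihood fit of all 6 libraries with 3 residual degrees of freedom, Benjamini-Hochberg adjustment and a threshold of 0.05. Each SE was obtained as |log2 fold change| divided by √F. Arm ratios, log2 of counts plus 1 for precursors with a mean of at least 10 per arm, were tested with limma 3.58.1. Ratios of members were tested by exact permutation. DESeq2 1.42.0 and limma-voom served as alternatives. On counts simulated for the comparison of mei-p26 with w1118 (150 rows), 91.8% of 4-fold and 27.1% of 2-fold changes were recovered and 4.13% of calls were false. Each of 10 draws changed 20 random rows up or down, with the spread of each row estimated from these libraries. In the data 51 rows were called, so the simulated rates may not hold there.

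The seed family was taken from background knowledge, and the planned sum over all seeds was not run. Members, lists and tests were chosen with earlier results of these data known. The miRNAs named are the members, the seed family, members of the lists and the 5 nearest profiles for each main arm. miR-31a-5p falls outside this rule and was added, after its values were seen, as the paralog of one of these.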

Additional observations from a re-analysis of the deposited data

How the results depend on the processing

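The falls of miR-318-3p, miR-994-5p and miR-994-3p in mei-p26, against w1118 and against wh7, kept their direction and passed under all 20 alternatives, with log2 fold changes of -2.82 to -2.21, -3.01 to -2.01 and -3.52 to -2.55 against w1118, with the highest adjusted p, 0.00846, for miR-994-5p between the mutants. For wh7 and w1118 no member passed under any of the 20. There miR-994-5p turned to 0.13 with scaling by other follicle and border cell miRNAs, and ran from -0.73 to 0.26 with 1 library left out. The arm ratio of miR-994 in mei-p26 against wh7 ran from -0.024 to 0.44 with 1 library left out. miR-996-3p in mei-p26 against w1118 was at 0.0023 with total-count scaling. With only rows averaging 50 counts or more, 26 rows passed in mei-p26 against w1118, 9 in wh7 against w1118 and 26 in mei-p26 against wh7, where fewer rows were tested, against 51, 23 and 41 in the fits reported. With 1 library left out the count in wh7 against w1118 ran from 10 (without wh7 replicate 1; 13 without wh7 replicate 2) to 30. The calls were 32 higher and 19 lower in mei-p26 against w1118, but 22 and 25 with upper-quartile scaling and 27 and 32 without w1118 replicate 2. In wh7 against w1118 they were 17 and 6, but 17 and 3 with total-count scaling 18 and 2 with scaling by other follicle and border cell miRNAs, and 7 and 11 without w1118 replicate 2; the cause was not tested. Replicate numbers are shared by the labels of all groups. The deviations of same-numbered libraries correlated with r of -0.016 between mei-p26 and w1118, -0.33 between wh7 and w1118 and 0.089 between the mutants. No r was clearly positive, so the numbers were not taken as pairs. What lies behind the negative r of wh7 and w1118 was not tested. With the number as a replicate block, miR-318-3p in mei-p26 against w1118 was at -2.49 and 50 rows passed, no member call changed, and 26 rows passed in wh7 against w1118. Exchanging the numbers of the wh7 libraries, a pairing chosen after seeing the data, gave 30 rows there. The alternatives on seed length and on mean rows were not run for the seed family. The depth of 144175 to 249262 counts leaves miR-318-5p untested.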
